A study of Homo sapiens with 5 samples.

Results

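The genes described here are those of the insulin-like growth factor axis: the receptors IGF1R, INSR and IGF2R, the receptor substrates IRS1 and IRS2, the ligand IGF1 and the binding proteins IGFBP2, IGFBP3, IGFBP4 and IGFBP5. They were chosen by symbol, each through a probe set that names 1 gene in the platform annotation, and 9 of the 10 had one among the 14812 genes measured. IGFBP2 had none and was not analysed here. Where a gene has several probe sets, the brightest by mean log2 intensity was to be used. Each of the 9 genes had only 1, so no measured value entered the choice of probe set. The genes themselves were chosen with earlier results of these data known. The 2 groups were shRB, with 3 arrays, and shControl, with 2. Both were LNCaP, a human prostate cancer cell line that responds to androgen, grown in 5% FBS, infected with retrovirus and selected with puromycin. The shRB cells carried a hairpin against the retinoblastoma gene RB1 and the shControl cells a scrambled hairpin. Both received 10 Gy of ionizing radiation and gave RNA 24 h later, so no value here sets irradiated against unirradiated cells. The labels leave unsaid whether replicate arrays stem from separate cultures, so each p-value measures a spread between samples that may be technical.

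IGF1R is a receptor tyrosine kinase on the cell surface that binds IGF1 and IGF2. Once active it phosphorylates the docking proteins IRS1 and IRS2, and these recruit the kinases of the PI3K and AKT branch, while SHC adaptors lead to RAS and MAPK. The IGFBPs hold the ligands outside the cell and limit or prolong their access to the receptor, and IGF2R removes IGF2 without signalling of its own. In prostate epithelium the axis promotes growth and survival, and in several tumour cell types it is known to affect survival after radiation.

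The start regions of IGF1R and of INSR, its closest relative, are shown because the transcript of IGF1R differed between the groups and that of INSR did not pass the test. Each window runs from 250 bases before to 50 bases after the annotated start and was taken from RefSeq (GRCh38.p14). The IGF1R window is chr15:98648289-98648588 on the plus strand and the INSR window chr19:7294365-7294664 on the minus strand, both written 5′ to 3′ along the gene. Capitals mark the GC box bound by SP1 family factors (GGGCGG on either strand) and 4 spellings of the E2F motif (TTTGGCGC, TTTCCCGC, TTTCGCGC or TTTGCCGC on either strand).
IGF1R: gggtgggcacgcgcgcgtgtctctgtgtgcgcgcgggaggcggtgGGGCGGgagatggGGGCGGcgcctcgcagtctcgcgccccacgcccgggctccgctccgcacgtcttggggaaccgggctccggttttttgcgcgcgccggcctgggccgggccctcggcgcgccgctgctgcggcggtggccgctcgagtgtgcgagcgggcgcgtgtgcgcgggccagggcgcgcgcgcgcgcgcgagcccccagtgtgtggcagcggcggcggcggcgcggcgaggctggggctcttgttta
INSR: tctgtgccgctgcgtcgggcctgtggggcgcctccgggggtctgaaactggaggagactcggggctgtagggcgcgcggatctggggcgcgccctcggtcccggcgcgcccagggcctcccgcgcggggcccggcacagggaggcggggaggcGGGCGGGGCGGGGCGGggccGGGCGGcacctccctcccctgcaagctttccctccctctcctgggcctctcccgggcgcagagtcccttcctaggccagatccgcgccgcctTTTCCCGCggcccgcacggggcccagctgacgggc

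The IGF1R window held 2 GC boxes, whose first bases lie at -205 and -192 from the start, and no E2F spelling. The INSR window held 4 GC boxes, 3 of them overlapping by 1 base, and an E2F spelling at position 16 after the start. Both windows are rich in G and C, at 79.7% for IGF1R and 78.3% for INSR, against a median of 58.7% over the 35116 start regions of that table. All 9 measured genes had a start region there, 10 in all because IGF1 has 2. A GC box was found in 7 of the 10, against 45.0% of all start regions, and an E2F spelling in 2, those of INSR and IRS2, against 3.31% of all. Neither IGF1 window, at 43.7% and 42.3% G and C, held a GC box, nor did that of IGFBP5. The forkhead letters GTAAACA, read on both strands, occurred in 1 of the 10, an IGF1 window, against 3.42% of all, and TATAAA on the gene's strand in 1, that of IGFBP4, against 7.33%. A match is a string of letters and not a measured site, and a missing match says only that those letters are not in the window.

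Transcript levels are log2 of the probe set intensities as deposited, on a scale whose lowest value is 4. That floor lies at a linear intensity of 16. Whether it is a constant added to every value is not stated. If it is, a difference between dim values is compressed. Array medians of the linear intensity lay between 26.65 and 28.06. Across genes, the shRB arrays correlated with each other at r = 0.983 to 0.986, the 2 shControl arrays at r = 0.966 and arrays of different groups at r = 0.955 to 0.97 (genes are not independent replicates). The shControl arrays were thus no more alike than arrays across the groups. A gene passed when its adjusted p was under 0.05 in limma, with Benjamini-Hochberg adjustment over all 14812 genes. RB1, the hairpin's target, had log2 intensities of 5.16, 5.28 and 5.20 in shRB and 5.81 and 5.70 in shControl. Every shRB array was below both shControl arrays, and the difference of -0.54 (SE 0.14) did not pass (limma adjusted p = 0.0967). It passed with the dimmer genes left out of the fit (adjusted p = 0.0489). Of 9 luminal prostate markers, 6 were measured and none passed, against 1.07% of all genes, with group means from 6.33 to 10.13. KLK3, which encodes prostate-specific antigen, differed by -0.05 (limma adjusted p = 0.875). The fibroblast markers DCN and LUM, 2 measured of 5, lay near the floor, with group means of 4.27 to 4.47. Of 3 basal markers 2 were measured. KRT5 had group means of 5.34 in shRB and 5.15 in shControl, and KRT14 of 4.86 and 4.81. The blood marker CD68, 1 measured of 2, lay well above the floor, at 7.06 in shRB and 6.84 in shControl. None of these markers passed.

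The transcript of IGF1R was lower in shRB cells, and none of the other 8 measured genes of the axis passed. IGF1R, probe set 16805495 on chromosome 15, had log2 intensities of 6.22, 6.45 and 6.19 in shRB replicates 1 to 3 and 7.43 and 7.24 in shControl replicates 1 and 2. All shRB arrays lay below both shControl arrays, and the gap between the groups was wider than the range within either. The shRB mean was 6.29 ± 0.14 (SD, n = 3) and the shControl mean 7.34 ± 0.14 (SD, n = 2), a log2 difference of -1.05 (SE 0.16, 95% interval -1.39 to -0.71, limma adjusted p = 0.0112). On the deposited scale this is 2.07-fold lower. With the floor of 16 taken off the linear means, the shRB level was 62.4 units and the shControl level 145.9, a ratio of 0.427. In a bulk extract, fewer cells with the transcript and less transcript per cell cannot be told apart.

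The size of the IGF1R difference varied little between settings, while its adjusted p did not stay below the threshold in all of them. Leaving out 1 array at a time gave differences from -1.15 to -0.95. Leaving out 1 shControl array leaves a single array in that group, so only the difference is given. It was -0.95 without replicate 1 and -1.15 without replicate 2. IGF1R did not pass in limma without shRB replicate 1 (adjusted p = 0.111), replicate 2 (0.0622) or replicate 3 (0.132). Nor did it pass in limma with the floor of 16 removed before the logarithm (difference -1.18, adjusted p = 0.115). Wherever the floor is removed before the logarithm, 4 is added to the linear value. With the replicate number as a block IGF1R did not pass either (difference -1.0, adjusted p = 0.131).

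**Figure D1:**
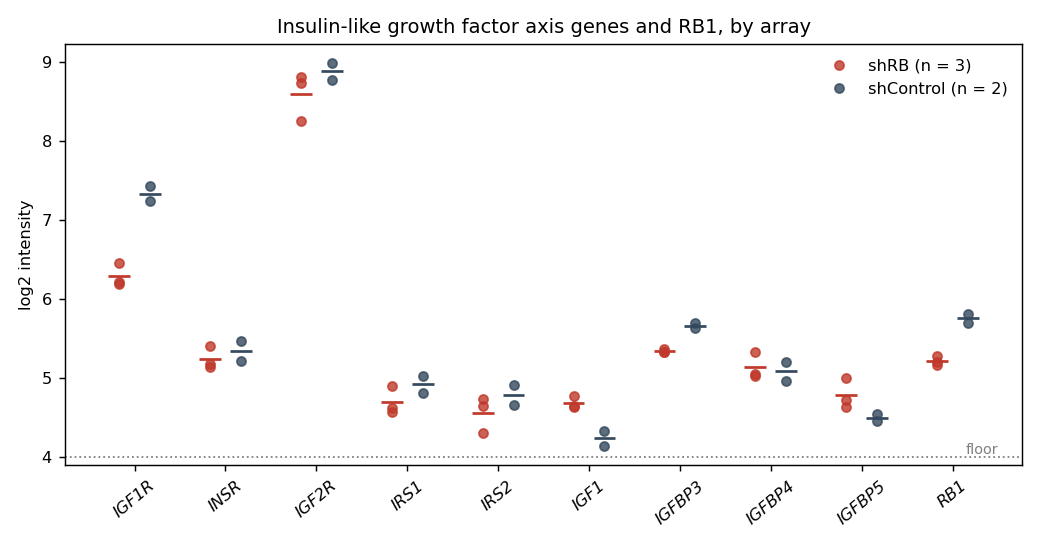
Log2 intensity (vertical axis) of the 9 measured axis genes and of RB1 on each array, with shRB in red on the left of each pair and shControl in dark grey on the right. Bars are group means and the dotted line is the floor of 4. Groups are to be compared within a gene only. The IGF1R arrays of shRB (6.19 to 6.45) lie below those of shControl (7.24 and 7.43).

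Of the 9 genes, 1 was lower past the threshold, against 0.378% of all genes lower and 1.07% in either direction. The genes were chosen with earlier results of these data known, so that count is a description. In 2 of the 9 all shRB arrays were above both shControl arrays (IGF1 and IGFBP5) and in 2 below (IGF1R and IGFBP3), against 20.6% and 15.4% of all genes, or 36.0% in either direction. The median difference of the 9 genes was -0.22 on the log2 scale, against 0.02 over all genes. Of the 9, 3 differences were positive, against 53.8% over all genes, and 6 negative. Of all genes, 0.223% were at least 2-fold lower, and IGF1R ranked 29 among the decreases.

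The related receptors did not pass. INSR, the insulin receptor, which shares most signalling partners with IGF1R, had log2 intensities of 5.40, 5.14 and 5.17 in shRB and 5.46 and 5.21 in shControl. The groups overlapped, and the difference was -0.10 (95% interval -0.45 to 0.25, limma adjusted p = 0.777). On the deposited scale that interval does not reach the IGF1R interval. INSR lay only 21.8 units above the floor in shRB and 24.6 in shControl, so its difference and interval may be compressed. With the floor removed and 4 added before the logarithm, the INSR difference was -0.14 (SE 0.22). Whether the 2 differences differ from each other was not tested. IGF2R, the scavenging receptor of IGF2, had 8.81, 8.74 and 8.26 in shRB and 8.78 and 8.99 in shControl. Its groups overlapped too, with shRB replicate 3 apart from the other shRB arrays, and the difference was -0.28 (95% interval -0.69 to 0.13, adjusted p = 0.459).

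The substrates lay close to the floor in both groups. IRS1, a docking protein of both IGF1R and INSR, had log2 intensities of 4.89, 4.61 and 4.57 in shRB and 4.81 and 5.02 in shControl. IRS2, the second docking protein, had 4.73, 4.64 and 4.30 in shRB and 4.65 and 4.91 in shControl. Both genes overlapped between the groups and both differed by -0.22, with 95% intervals of -0.58 to 0.13 for IRS1 (limma adjusted p = 0.499) and -0.60 to 0.16 for IRS2 (adjusted p = 0.541). Like IGF2R, they were lowest on shRB replicate 3. At these intensities a change in transcript level may be compressed, and neither gene is shown to be above background.

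IGF1 was the member with the largest positive difference and was also the closest to the floor. Its log2 intensities were 4.64, 4.63 and 4.77 in shRB and 4.13 and 4.33 in shControl, so the groups did not overlap. The difference was 0.45 (SE 0.15, 95% interval 0.12 to 0.78), with an unadjusted p of 0.0116 in limma's fit and an adjusted p of 0.156, and it did not pass. Leaving out 1 array at a time gave differences of 0.35 to 0.55. Without 1 shRB array the adjusted p-values in limma were 0.297 to 0.395. With the floor removed and 4 added before the logarithm, the difference in limma was 1.03 (adjusted p = 0.16). With the floor taken off the linear means, shRB lay at 9.7 units and shControl at 2.8, a ratio of 3.44. The size of the IGF1 difference thus depends on how the floor is treated. The level in shControl is not shown to be above background.

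Among the binding proteins, the groups were separate for IGFBP3 and IGFBP5, in opposite directions, and overlapped for IGFBP4. IGFBP3, the main carrier of IGFs in blood, had log2 intensities of 5.37, 5.32 and 5.33 in shRB and 5.69 and 5.63 in shControl. These values are tight within each group (SD 0.03 in shRB and 0.04 in shControl), and the difference was -0.32 (SE 0.14, 95% interval -0.63 to -0.01). The unadjusted p in limma's fit was 0.0444, and 18.1% of all genes had one under 0.05. IGFBP3 did not pass (adjusted p = 0.263).

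IGFBP5, which binds the extracellular matrix as well as IGFs, had log2 intensities of 4.63, 5.00 and 4.72 in shRB and 4.54 and 4.45 in shControl. The difference of 0.28 (95% interval -0.07 to 0.64, limma adjusted p = 0.375) rests on values near the floor. IGFBP4, a carrier that inhibits IGF action, had 5.32, 5.05 and 5.02 in shRB and 4.96 and 5.20 in shControl. Its difference was 0.05 (95% interval -0.30 to 0.40, adjusted p = 0.902).

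**Figure D2:**
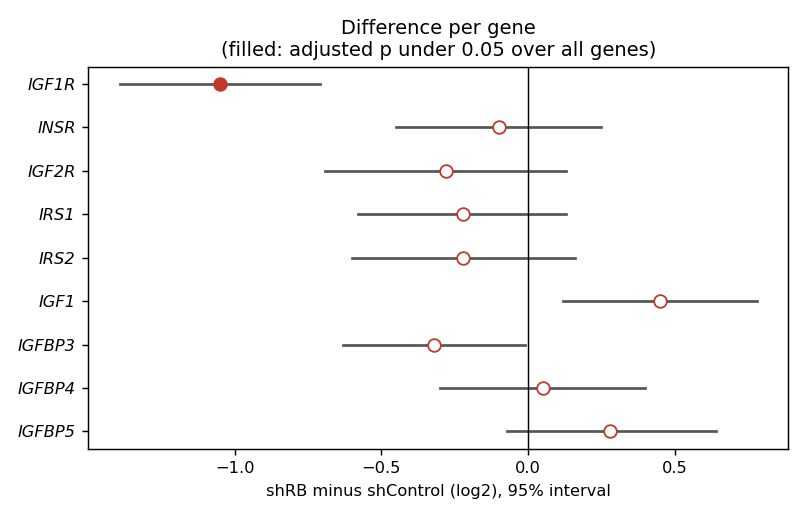
Difference in log2 intensity, shRB minus shControl (horizontal axis), for the 9 measured axis genes, with 95% intervals from limma. The filled point, IGF1R at -1.05, passed over all genes, and the open points did not. The intervals of IGF1 and IGFBP3 leave out 0, and those of the other 6 open points include it.

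Of 18 protein-coding genes that flank the members in the RefSeq order, 14 were measured, with a median difference of -0.03. None passed, which for so few genes is near the 1.07% of all genes that passed. Beside IGF1R on chromosome 15, ARRDC4 differed by 0.05 (limma adjusted p = 0.925) and PGPEP1L by 0.11 (adjusted p = 0.797). The microRNA gene MIR4714, which lies inside IGF1R and was looked up after its value was seen, differed by 0.14 (adjusted p = 0.703) at log2 intensities of 4.08, 4.10 and 4.47 in shRB and 4.04 and 4.12 in shControl. Beside IGFBP3 on chromosome 7, IGFBP1, a binding protein regulated by insulin in liver, differed by 0.21 (adjusted p = 0.508).

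The genes whose pattern over the 5 arrays was most like that of IGF1R were BAG2, a cochaperone, FN1, which encodes fibronectin, RELN, which encodes reelin, PXDN, a matrix peroxidase, and ASRGL1, an asparaginase. Likeness was the root mean square difference of log2 values after centring each gene on its mean, and it ran from 0.048 for BAG2 to 0.12 for ASRGL1. BAG2 had log2 intensities of 4.51, 4.66 and 4.54 in shRB and 5.67 and 5.50 in shControl. FN1 had 9.40, 9.46 and 9.26 in shRB and 10.35 and 10.39 in shControl. These genes were picked for this pattern, so their differences of -1.13 to -0.97 are a description. BAG2, RELN, PXDN and ASRGL1 lay near the floor in shRB, so their differences may be compressed. With the floor taken off the linear means, the ratios were 0.241 for BAG2, 0.496 for FN1, 0.325 for RELN, 0.263 for PXDN and 0.32 for ASRGL1. That of IGF1R was 0.427. Near the floor such a ratio depends on how the floor is treated, so those of BAG2, RELN, PXDN and ASRGL1 are not settled. The other 2 probe sets of ASRGL1 differed the opposite way, by 0.56 and 0.30, so that gene has no settled direction. Nearest to IGFBP3 were SPATA20, MTMR3, MIR516A1, SH3BP4 and LINC00353, at root mean square differences of 0.014 to 0.022, and none of them passed. MIR516A1 lay at the floor on all shRB arrays.

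The rest of the pathway was read from lists of ligands, binding proteins, proteases, adaptors, kinases and targets, of which 82 of 126 genes were measured. Among the 82, 1 was higher (SOCS3) and 1 lower (SHC3) past the threshold, against 0.695% and 0.378% of all genes. Their median difference was -0.02, against 0.02 over all genes. Of the 82, 37 were above zero and 45 below, against 53.8% above zero over all genes. In either direction 1.07% of all genes passed, so a short list with none past the threshold, as several below, is near that share. None of the 3 further ligand genes listed, IGF2 among them, had a named probe set, so these were not analysed here.

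Both genes that passed belong to the 16 measured genes of the receptor-proximal list (24 listed), mostly adaptors and inhibitors. SHC3, an SHC adaptor known mainly from neurons, had log2 intensities of 4.68, 4.86 and 4.75 in shRB and 6.15 and 5.48 in shControl. All shRB arrays were lower, but the shControl arrays stood apart from each other. The difference was -1.05 (SE 0.19, limma adjusted p = 0.031). Leaving out a shControl array, which leaves a single array in that group, gave -0.72 without replicate 1 and -1.39 without replicate 2. SHC3 did not pass without shRB replicate 1, 2 or 3 (limma adjusted p = 0.18, 0.141 and 0.208), nor with the floor removed (0.123). In shRB it lay near the floor, so the fold in transcript is not known.

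SOCS3, a suppressor of cytokine signalling that also binds the insulin receptor, was measured by 2 probe sets that disagreed. The brighter one, 17117736, had log2 intensities of 6.09, 6.14 and 6.05 in shRB and 5.04 and 5.16 in shControl, a difference of 0.99 (SE 0.14, limma adjusted p = 0.0101). The other, 16849400, had 5.34, 5.03 and 5.03 in shRB and 4.96 and 5.91 in shControl, a difference of -0.30. With the 2 probe sets averaged, SOCS3 differed by 0.35 and did not pass (adjusted p = 0.329). It also did not pass without shRB replicate 1, 2 or 3 (0.0963, 0.0911 and 0.0979), nor with the floor removed (0.0886). The orphan receptor INSRR (-0.34, adjusted p = 0.272), the receptor inhibitor GRB14 (0.47, adjusted p = 0.279) and the adaptor SHC1 (0.34, adjusted p = 0.284) had the next smallest p of that list and did not pass.

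Of the 6 further binding proteins and relatives, none passed. IGFBP6, a carrier that prefers IGF2, came closest, with log2 intensities of 5.09, 5.25 and 5.05 in shRB and 5.54 and 5.82 in shControl. Its arrays did not overlap, and the difference of -0.55 (SE 0.16) did not pass in limma (adjusted p = 0.11). IGFBP1 is given above, and KAZALD1, a relative of the IGFBPs, differed by 0.30 (adjusted p = 0.402). The proteases that cut IGFBPs, with their inhibitors, had 8 measured genes of 10, 1 positive and 7 negative, with a median of -0.17. Over all genes 53.8% of differences were positive and the median was 0.02. None passed: STC1, an inhibitor of the protease PAPPA, differed by 0.43 (adjusted p = 0.167), the kallikrein KLK4 by -0.35 (0.24) and the lysosomal protease CTSD by -0.26 (0.389).

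Downstream, no gene of the PI3K, AKT and mTOR list passed (19 measured of 33, median near 0), and 7 of the 19 had shRB arrays above and 5 below all shControl arrays, against 20.6% and 15.4% of all genes. EIF4EBP1, a repressor of translation that mTOR inactivates, had log2 intensities of 7.08, 6.94 and 7.20 in shRB and 6.82 and 6.48 in shControl, a difference of 0.42 (limma adjusted p = 0.209). PDPK1, which activates AKT, differed by 0.39 (adjusted p = 0.222) and AKT1 by -0.34 (adjusted p = 0.316). Both were measured by 2 probe sets, and the dimmer one differed by 0.24 for PDPK1 and by -0.15 for AKT1. The RAS and MAPK list had 9 measured genes of 17 and none passed, with the scaffold KSR1 at 0.37 (adjusted p = 0.324), MAPK3 at 0.27 (0.415) and MAP2K1 at -0.34 (0.432).

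Genes of the FOXO list, transcription factors that AKT keeps out of the nucleus and their targets, had 16 measured of 22, with none past the threshold. Of the 16, 6 differed upwards and 10 downwards, around a median of -0.12, against 53.8% upwards and a median of 0.02 over all genes. CCNG2, a cyclin of arrested cells, differed by -0.47 (limma adjusted p = 0.14), TXNIP, an inhibitor of glucose uptake, by 0.36 (adjusted p = 0.229) and the transcription factor KLF6 by 0.34 (adjusted p = 0.331). CCNG2 passed with an intensity trend and robust variances (adjusted p = 0.0481).

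Among the 3 proteins that bind IGF2 mRNA, IGF2BP3 had log2 intensities of 5.68, 5.58 and 5.51 in shRB and 5.06 and 4.91 in shControl. Its arrays did not overlap. The difference of 0.61 (SE 0.15) did not pass in limma (adjusted p = 0.0795) and passed with the dimmer genes left out of the fit (adjusted p = 0.0367). IGF2BP1 (-0.12, adjusted p = 0.732) and IGF2BP2 (0.06, adjusted p = 0.874) did not pass. Of 8 listed factors known to act on the IGF1R promoter, 5 were measured and none passed, with E2F1 at 0.27 (adjusted p = 0.359), the zinc finger factor SP1 at -0.26 (adjusted p = 0.533) and WT1, a repressor, at 0.13 (adjusted p = 0.696).

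**Figure D3:**
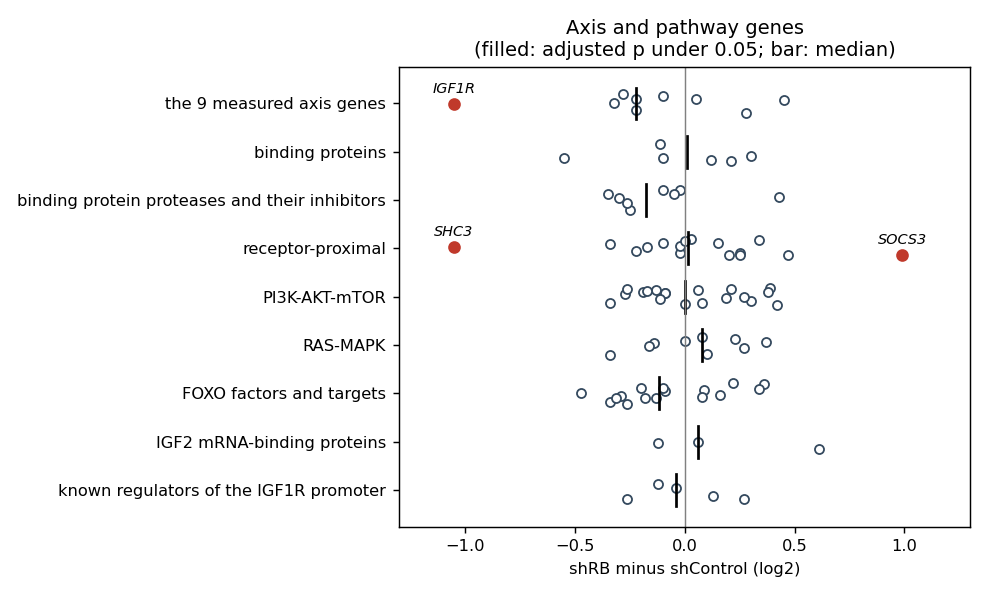
Difference in log2 intensity, shRB minus shControl (horizontal axis), for the 9 measured axis genes (top row) and for the measured genes of each pathway list, 1 point per gene, with vertical jitter only for legibility and a bar at each median. The 3 filled points, IGF1R at -1.05, SHC3 at -1.05 and SOCS3 at 0.99, passed over all genes, and SOCS3 is shown by its brighter probe set.

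**Figure D4:**
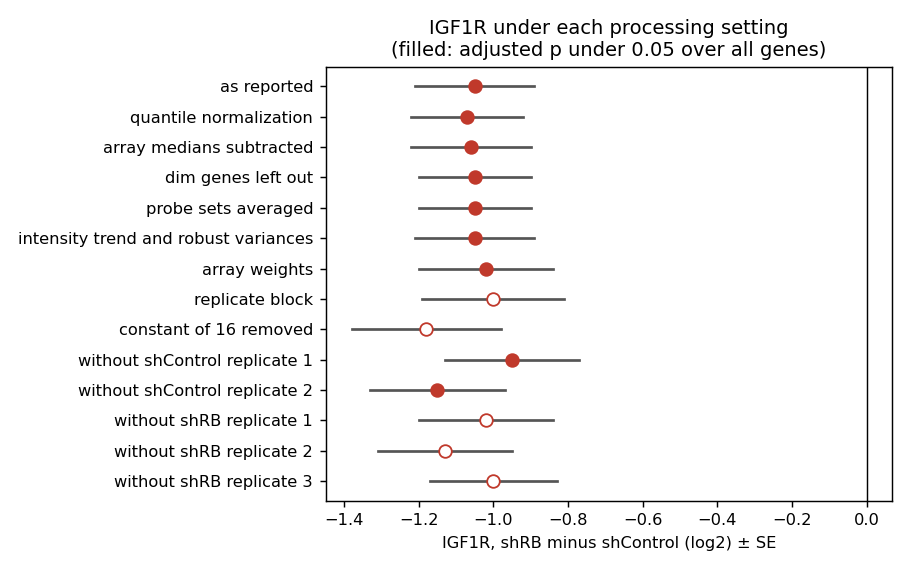
IGF1R difference in log2 intensity, shRB minus shControl, with its SE (horizontal axis), as reported and under each other setting (rows). All values lie between -1.18 and -0.95. Filled points had an adjusted p under 0.05 over all genes tested, and open points did not. In the rows without 1 shControl array a single array remained in that group, so their fill is not to be read.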

How the data were processed

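Intensities per probe set were deposited by the authors on a linear scale, with a lowest value of 16. How they were background-corrected, normalized and summarised, and with which software or build, is not given in the sources used here. Of 44607 probe sets, 15835 had 1 gene symbol in the platform annotation, none had several and 28772 were unnamed here. All 15835 matched the RefSeq gene table of GRCh38.p14 by Entrez identifier, which updated the symbols. For 651 genes with several probe sets the one with the highest mean log2 intensity was used, leaving 14812 genes with no filter.

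The groups' log2 intensities entered limma (version 3.58.1, R 4.3.3), with lmFit, eBayes and no covariates, two-sided and adjusted by Benjamini-Hochberg over all genes, and the fit was tested on simulated data. The members, the pathway lists and the settings were chosen with earlier results of these data known. Named genes were the members, RB1, flanking genes, markers, genes of a list that passed plus the 3 next smallest p, and the 5 nearest patterns to IGF1R and to IGFBP3. The number of arrays, 5, limits the precision. Alternatives were quantile normalization, subtracted array medians, dim genes left out, averaged probe sets, array weights, robust variances with an intensity trend, a replicate block, the floor of 16 removed with 4 added, a threshold of 0.1 and leaving out each array.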

Additional observations from a re-analysis of the deposited data

How the results depend on the processing

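The fit as reported called 159 genes, 1 axis gene and 2 other pathway genes. The count over all genes became 385 with dim genes left out (7406 tested), 426 with an intensity trend and robust variances, 88 with array weights, 13 with the floor of 16 removed, 517 at a threshold of 0.1 and 22 to 411 without 1 array. The share of calls that were higher in shRB was 64.8% as reported, 33.3% with the replicate block and 30.8% with the floor removed. With the floor removed, 0 axis genes and 0 other pathway genes passed. With the replicate number as a block, 24 genes, 0 axis genes and 0 other pathway genes passed (IGF1R adjusted p = 0.131). That fit leaves shRB replicate 3 without weight, and the numbers are not shown to pair the arrays, since deviations of same-numbered arrays correlated at r = -0.021 and 0.046. With probe sets averaged, 1 other pathway gene passed. Without 1 shRB array, 22 to 28 genes, 0 axis genes and 0 other pathway genes passed. The upper end of the range over all genes without 1 array comes from a fit without 1 shControl array. A single array then remained in that group, so that upper end is not to be read. Counts of axis and other pathway genes without 1 shControl array are left out for the same reason.

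Of 631 alternative values for 50 single genes, 572 kept their direction and side of the threshold, 43 no longer passed, 3 newly passed and 13 changed sign, of which none had passed. Most of the 50 genes had not passed as reported, so keeping their side says little. All 43 losses fell on IGF1R, SHC3, SOCS3 and the 5 nearest patterns to IGF1R, and IGF1R had 5 of them. These counts include fits with a single shControl array. INSR ranged from -0.23 to 0.03 without 1 array, IGFBP4 from -0.07 to 0.17, IGF2BP2 from -0.12 to 0.25, SP1 from -0.52 to 0.01, WT1 from -0.01 to 0.27, ARRDC4 from -0.31 to 0.41 and PGPEP1L from -0.07 to 0.26. With the replicate block IGF2BP2 was -0.02 and PGPEP1L -0.07, and with quantile normalization ARRDC4 was -0.0047. The cause of these changes was not tested. Signal over background cannot be judged for genes near the floor, among them IGF1, IRS1 and IRS2.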
